A study of Mus musculus with 12 samples.

Results

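Peritoneal macrophages of mice lacking both SAMHD1 and MDA5 (DKO) were compared with those of wild-type mice (WT), across all genes of the table deposited for this pair. The comparison used 3 DKO and 3 WT libraries, 6 of the 12 in the series; the other 6 came from SAMHD1 KO and MDA5 KO macrophages. All cells were untreated and taken at day 0, and total RNA was sequenced. The labels state no strain, sex or age, do not describe the knockout alleles, and do not state if replicate libraries were taken from different animals; p-values thus measure the spread between these libraries, which may be technical. Of 28313 genes in the table, the 14154 with a mean of at least 10 normalised reads were tested. The question is what remains of the macrophage change when both genes are lost.

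SAMHD1 is an enzyme that hydrolyses deoxynucleotide triphosphates, and its loss in people and mice is known to raise the expression of interferon-stimulated genes. MDA5, encoded by Ifih1, senses long double-stranded RNA in the cytosol and signals through MAVS to IRF3 and NF-kB, which induce type I interferon. Interferon in turn activates a factor that contains STAT2 and IRF9 and binds a repeated GAAA element in the promoters of interferon-stimulated genes.

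One library stood apart. WT 3 differed from WT 1 and WT 2 by a median of 0.88 and 0.83 per gene (absolute difference in log2(normalised reads + 1)), whereas the other 5 libraries differed from each other by 0.21 to 0.40. Recovered depth ran from 33234361 reads in WT 3 to 58345425 in DKO 1. In the deposited log2 columns, the authors had in addition removed, gene by gene, the mean difference between WT 3 with DKO 3 and the other 4 libraries. That removal leaves the difference between the genotype means unchanged, and the fit carried a term for it. The comparison is therefore given over 6 libraries and without WT 3. In the fit without WT 3 the term takes up DKO 3 as well, so that the estimate rests on DKO 1 and DKO 2 against WT 1 and WT 2; the difference between DKO 3 and WT 3 alone is given where it departs from it. Differences are DKO minus WT on the deposited log2 scale, which has a floor at 0 reads and so understates changes of low genes, and are followed by ± the standard error of limma.

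Over the 6 libraries, 0 genes passed limma's test at a Benjamini-Hochberg adjusted p of 0.05 in either direction (a background of 0.0%), and the smallest adjusted p was 0.0696. Before adjustment, 4133 genes (29.2% of those tested) had p under 0.05, 2235 higher and 1898 lower in DKO. Without WT 3, 630 genes were higher (4.45%) and 470 lower (3.32%). Of these 1100 genes, 1048 had the same sign between DKO 3 and WT 3, which that fit did not use, against 71.9% of all genes tested. In the authors' deposited table, 1008 of the genes tested here were higher (7.12%) and 1093 lower (7.72%), and it shared 982 of the 1100 calls with their direction.

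Both targeted genes were lower in DKO. Samhd1 stood at 17723, 16045 and 7239 normalised reads across WT 1 to 3 and at 5172, 3466 and 1809.7 across DKO 1 to 3, and every DKO library lay below every WT library. The difference of Samhd1 (ENSMUSG00000027639, chr2:157097533-157135265, GRCm38) was -1.97 ± 0.21 (n = 3 and 3 libraries, limma adjusted p = 0.087) and -1.98 ± 0.19 without WT 3 (adjusted p = 0.0091). Samhd1 reads remained in all DKO libraries, as counted over the whole gene; where the allele is altered is not given in the sources used here. Ifih1 reached 3474, 2502 and 836 normalised reads in the 3 WT libraries, in order, and 4.36, 0.917 and 43.4 in the 3 DKO libraries. The difference of Ifih1 (ENSMUSG00000026896, chr2:62595798-62646255) was -5.23 ± 0.57 (adjusted p = 0.087) and -6.22 ± 0.23 without WT 3 (adjusted p = 8.45e-06). DKO 3 held more Ifih1 reads than the other DKO libraries, yet far fewer than any WT library.

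Part of the interferon-stimulated genes was higher in DKO. Of the 106 genes listed as stimulated by type I interferon, 101 were tested and 75 lay above 0, with a median difference of 0.44 against 0.03 over all genes, of which 51.9% lay above 0 (50.5% without WT 3). Over 6 libraries 0 passed the adjusted test, while 44 were higher and 6 lower at an unadjusted p under 0.05, against 15.8% and 13.4% of all genes. Without WT 3, 15 members rose and 2 fell, against 4.45% and 3.32% of all genes, and the list's median was 0.30 against 0.00 over all genes; DKO 3 minus WT 3 gave 0.73. In normalised reads, 19 members had all 3 DKO libraries above all 3 WT libraries, against 18.1% of all genes, and 10 had all 3 below, against 17.7%. The share that separates upwards is therefore near the background, and the share that separates downwards lies under it. In these bulk libraries, fewer cells of a type and less RNA per cell cannot be told apart.

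**Figure D1:**
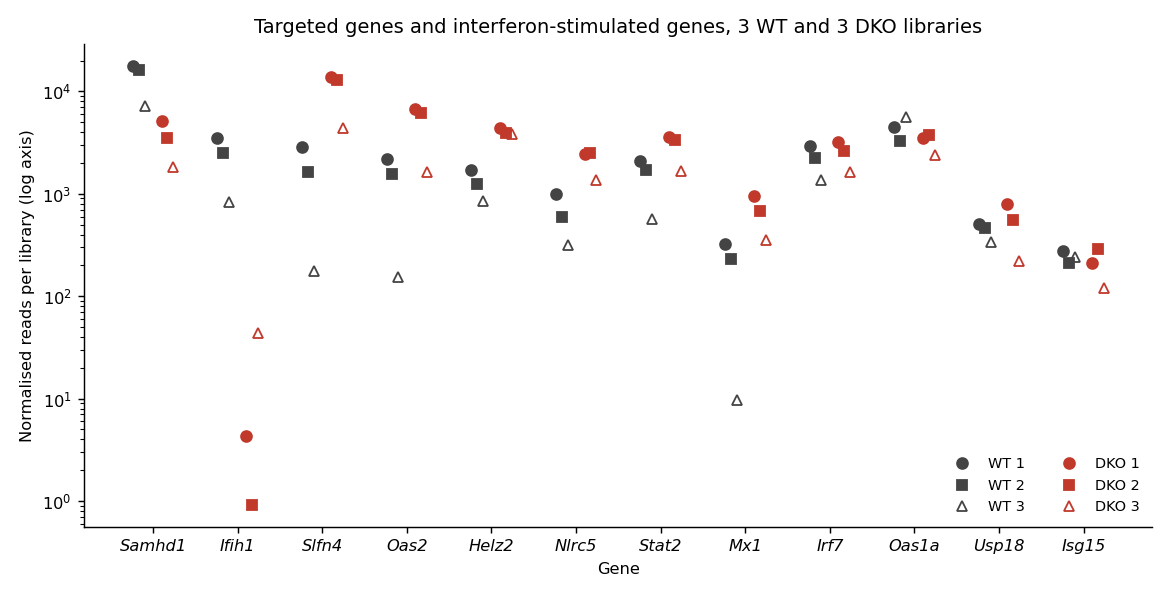
Normalised reads per library on a log axis for the 2 targeted genes and 10 interferon-stimulated genes, in 3 WT (grey) and 3 DKO (red) libraries; open triangles mark WT 3 and DKO 3. Samhd1 and Ifih1 lie lower in every DKO library, Slfn4, Oas2, Helz2, Nlrc5 and Mx1 lie higher in DKO 1 and DKO 2 than in any WT library, and Irf7, Oas1a, Usp18 and Isg15 overlap between the genotypes.

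Among effectors, the largest difference was in Slfn4, a Schlafen family gene induced by interferon in myeloid cells. Slfn4 had 2885, 1631 and 174 normalised reads in WT 1 to 3, against 13763, 13059 and 4346 in DKO 1 to 3. All 3 DKO libraries lay above all 3 WT libraries, and the difference was 3.14 ± 0.38 (adjusted p = 0.105), and 2.59 ± 0.26 without WT 3 (adjusted p = 0.0154). Oas2, an enzyme whose oligoadenylate product switches on RNase L, stood at 2184, 1563 and 155 normalised reads across WT 1 to 3 and at 6690.2, 6206 and 1628 across DKO 1 to 3. Its DKO 1 and DKO 2 values exceeded every WT value, while DKO 3 lay between WT 1 and WT 2. Oas2 differed by 2.18 ± 0.29 (adjusted p = 0.105), and by 1.77 ± 0.17 without WT 3 (adjusted p = 0.00765). Mx1, a dynamin-like GTPase that blocks influenza virus, reached 326, 230.4 and 9.69 normalised reads in the 3 WT libraries, in order, and 947, 677 and 352 in the 3 DKO libraries. The DKO libraries were all higher than the WT libraries, at 1.89 ± 0.36 (adjusted p = 0.105) and 1.37 ± 0.23 without WT 3 (adjusted p = 0.0193).

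Transcription factors and regulators of the response rose together with these effectors when WT 3 was left out. Stat2, the subunit that carries the main transactivation domain of the interferon-activated factor, had 2078, 1719 and 569 normalised reads in WT 1 to 3, against 3609, 3318 and 1664 in DKO 1 to 3. DKO 3 lay below WT 1 and WT 2 for Stat2, and above WT 3. Stat2 differed by 1.05 ± 0.21, and by 0.85 ± 0.14 without WT 3 (adjusted p = 0.0193). Nlrc5, the transactivator of MHC class I genes, stood at 999.7, 592 and 317 normalised reads across WT 1 to 3 and at 2436, 2529 and 1353 across DKO 1 to 3. Nlrc5 was higher in every DKO library than in any WT library, by 1.71 ± 0.23 and, without WT 3, by 1.61 ± 0.22 (adjusted p = 0.0177). Helz2, a helicase and nuclear receptor coactivator, reached 1704, 1258 and 858 normalised reads in the 3 WT libraries, in order, and 4398, 3913 and 3852 in the 3 DKO libraries. Helz2 was also higher in all 3 DKO libraries, by 1.67 ± 0.22 and, without WT 3, 1.46 ± 0.16 (adjusted p = 0.0091).

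The other members that rose without WT 3 were Ifi213 (2.13 ± 0.25) and Ifi206 (1.20 ± 0.25) of the DNA-binding Ifi200 family, Ifi44 (1.54 ± 0.34), Oas1b (1.48 ± 0.29), the ADP-ribosyltransferases Parp10 (0.82 ± 0.14), Parp11 (0.70 ± 0.15) and Parp14 (0.63 ± 0.15), Uba7 (0.64 ± 0.17), the ISG15-activating enzyme, and Samd9l (0.55 ± 0.13). Their adjusted p-values in limma ran from 0.0091 for Ifi213 to 0.05 for Uba7. Ifi213 is the member in which DKO 3 went the other way. Ifi213 had 76.0, 54.1 and 26.3 normalised reads in WT 1 to 3, against 397, 524 and 20.2 in DKO 1 to 3, and DKO 3 lay below all WT libraries with DKO 3 minus WT 3 at -0.15. The member that fell besides Ifih1 was Ly6c2, a surface marker of monocytes. Ly6c2 stood at 29.8, 70.1 and 45.7 normalised reads across WT 1 to 3 and at 0.726, 1.83 and 1.01 across DKO 1 to 3. It differed by -1.40 ± 0.25, and by -1.40 ± 0.31 without WT 3 (adjusted p = 0.0314); reads of Ly6c2 can be shared with its near-identical neighbour Ly6c1.

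Many classical members did not pass the test with or without WT 3. Isg15, the ubiquitin-like modifier, reached 278, 211 and 241 normalised reads in the 3 WT libraries, in order, and 209, 289.8 and 119 in the 3 DKO libraries. The genotypes overlapped, at -0.24 ± 0.26 over 6 libraries and 0.02 ± 0.23 without WT 3 (adjusted p = 0.969). Irf7, the factor that amplifies interferon induction, had 2952, 2211 and 1355 normalised reads in WT 1 to 3, against 3188, 2638 and 1650.0 in DKO 1 to 3. These overlapped as well, at 0.21 ± 0.20 and 0.18 ± 0.17. Oas1a stood at 4517, 3275 and 5587 normalised reads across WT 1 to 3 and at 3511, 3746 and 2413 across DKO 1 to 3. The difference of Oas1a was -0.45 ± 0.28, or -0.08 ± 0.17 without WT 3, with WT 3 the highest library. The deubiquitinase Usp18 differed by 0.10 ± 0.27 and 0.41 ± 0.20, Rtp4 by -0.11 ± 0.22 and 0.14 ± 0.13, and Ifi27l2a by -0.76 ± 0.33 and -0.29 ± 0.19, in each case over 6 libraries and then without WT 3. The RNA-binding Ifit genes gave 0.50 ± 0.27 for Ifit1, 0.76 ± 0.31 for Ifit2 and 0.58 ± 0.23 for Ifit3, and 0.19 ± 0.22, 0.35 ± 0.26 and 0.41 ± 0.23 without WT 3. For the antiviral gene Rsad2 the values were 0.66 ± 0.23 and 0.49 ± 0.22, for Oasl1 0.74 ± 0.24 and 0.52 ± 0.23, and for the nucleic acid sensor Zbp1 0.29 ± 0.19 and 0.30 ± 0.17. Ifi44, which rose without WT 3, differed by 1.11 ± 0.37 over 6 libraries and did not pass there. The 2 most abundant members, Lgals3bp and Ly6e, differed by 0.20 ± 0.24 and 0.24 ± 0.22, and by -0.01 ± 0.20 and 0.00187 ± 0.15 without WT 3. The chemokine Cxcl10 was not tested, since at most 4 reads were recovered from any of the 6 libraries.

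Because STAT2 and IRF9 act through promoter elements, the promoters of 2 members that rose without WT 3 (Stat2 and Parp11) and of 2 that did not pass the test (Isg15 and Rsad2) are shown. Each runs from 250 bases before to 50 after the gene start, 5′ to 3′ on the gene's strand, from RefSeq on GRCm38.p6, with matches to GAAANNGAAA or its reverse complement TTTCNNTTTC in capitals.
Stat2, chr10:128270248-128270547, plus strand: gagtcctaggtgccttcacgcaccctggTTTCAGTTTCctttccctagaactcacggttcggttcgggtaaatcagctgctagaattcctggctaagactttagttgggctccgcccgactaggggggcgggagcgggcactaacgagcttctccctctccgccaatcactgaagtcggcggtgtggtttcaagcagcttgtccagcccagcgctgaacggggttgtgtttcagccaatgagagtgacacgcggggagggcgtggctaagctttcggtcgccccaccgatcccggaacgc
Parp11, chr6:127446590-127446889, plus strand: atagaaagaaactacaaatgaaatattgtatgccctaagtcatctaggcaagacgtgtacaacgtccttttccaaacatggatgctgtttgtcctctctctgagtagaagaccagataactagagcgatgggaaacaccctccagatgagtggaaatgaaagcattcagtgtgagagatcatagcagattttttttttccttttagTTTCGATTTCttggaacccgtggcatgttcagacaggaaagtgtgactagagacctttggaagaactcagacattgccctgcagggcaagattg
Isg15, chr4:156200769-156201068, minus strand: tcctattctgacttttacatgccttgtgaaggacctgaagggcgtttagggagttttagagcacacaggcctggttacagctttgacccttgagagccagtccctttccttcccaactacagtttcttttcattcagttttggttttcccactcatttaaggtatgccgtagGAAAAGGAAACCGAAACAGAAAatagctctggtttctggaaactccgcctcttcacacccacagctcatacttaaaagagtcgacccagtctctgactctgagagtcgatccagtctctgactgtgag
Rsad2, chr12:26456403-26456702, minus strand: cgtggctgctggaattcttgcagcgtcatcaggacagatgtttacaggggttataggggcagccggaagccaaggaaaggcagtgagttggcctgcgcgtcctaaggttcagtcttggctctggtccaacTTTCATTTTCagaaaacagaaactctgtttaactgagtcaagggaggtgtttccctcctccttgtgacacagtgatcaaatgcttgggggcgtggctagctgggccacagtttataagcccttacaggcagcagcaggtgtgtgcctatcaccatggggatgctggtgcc
The element occurs on either strand in 39 of 86 matched promoters of the interferon list (45.3%) and in 1079 of 27025 promoters overall (3.99%). Isg15 holds 3 overlapping matches and the other promoters shown hold 1 each. Tested members with the element had a median difference of 0.52 and those without it 0.36; without WT 3 the medians were 0.30 and 0.28. Promoters of members on both sides of the test threshold thus carry the element, and a match describes the letters only.

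How far the interferon list differed depended on both libraries of the adjusted set. In mean log2(normalised reads + 1) over the 101 members, with all 12 libraries scaled together, WT 1, WT 2 and WT 3 stood at 10.08, 9.99 and 8.82, and DKO 1, DKO 2 and DKO 3 at 10.31, 10.27 and 9.62. DKO 1 and DKO 2 exceeded every WT library, whereas DKO 3 fell below WT 1 and WT 2. The difference of the means was 0.44 over 6 libraries, 0.26 for DKO 1 and DKO 2 against WT 1 and WT 2, and 0.03 when WT 3 was left out and DKO 3 was kept. In that last setting, with recovered reads, 60 of 101 members lay above 0 with a median of 0.11, and limma called Helz2 and Parp10 higher and Ly6c2 lower (backgrounds 1.46% and 1.46%).

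**Figure D2:**
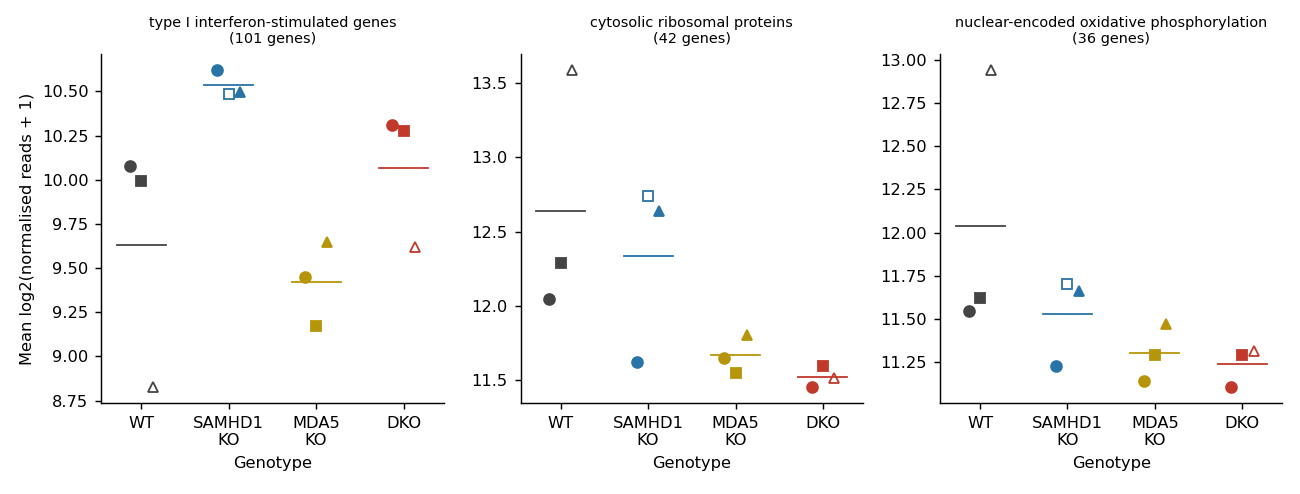
Mean log2(normalised reads + 1) per library over the tested members of 3 gene lists, by genotype; circles, squares and triangles are libraries 1, 2 and 3, open symbols mark the adjusted set and lines are means of 3 libraries. WT 3 lies lowest for interferon-stimulated genes and highest for the other lists, while the 3 DKO libraries lie within 0.15 of each other for ribosomal proteins.

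Beside the single knockouts, the same members held different levels. All 3 comparisons share the WT libraries, so the values are set side by side only, on recovered reads and for libraries outside the adjusted set (DKO 1 and 2, SAMHD1 KO 1 and 3, MDA5 KO 1 to 3, WT 1 and 2). The interferon list's median minus WT was 0.30 in DKO, 0.37 in SAMHD1 KO and -0.40 in MDA5 KO, with 72, 86 and 20 of 101 members above 0. Over all libraries the medians were 0.46, 0.68 and -0.06. MDA5 KO 2 had reads in 25700 genes, against 17783 to 21168 in the other libraries. In the list's mean, MDA5 KO 1 to 3 stood at 9.45, 9.17 and 9.65, below WT 1 at 10.08 and WT 2 at 9.99. Minus WT, Isg15 stood at 0.01 in DKO, 0.58 in SAMHD1 KO and -1.55 in MDA5 KO; Irf7 stood at 0.17, 0.91 and -0.94. Usp18 differed by 0.44, 1.21 and -1.37, and Rsad2 by 0.58, 1.49 and -0.92, in the same order. For these genes the DKO value lay between those of the single knockouts. For Slfn4 the values were 2.62, 1.87 and 0.46, and for Nlrc5 1.68, 0.94 and 0.54, with DKO the highest. No test of a difference between knockouts was run.

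**Figure D3:**
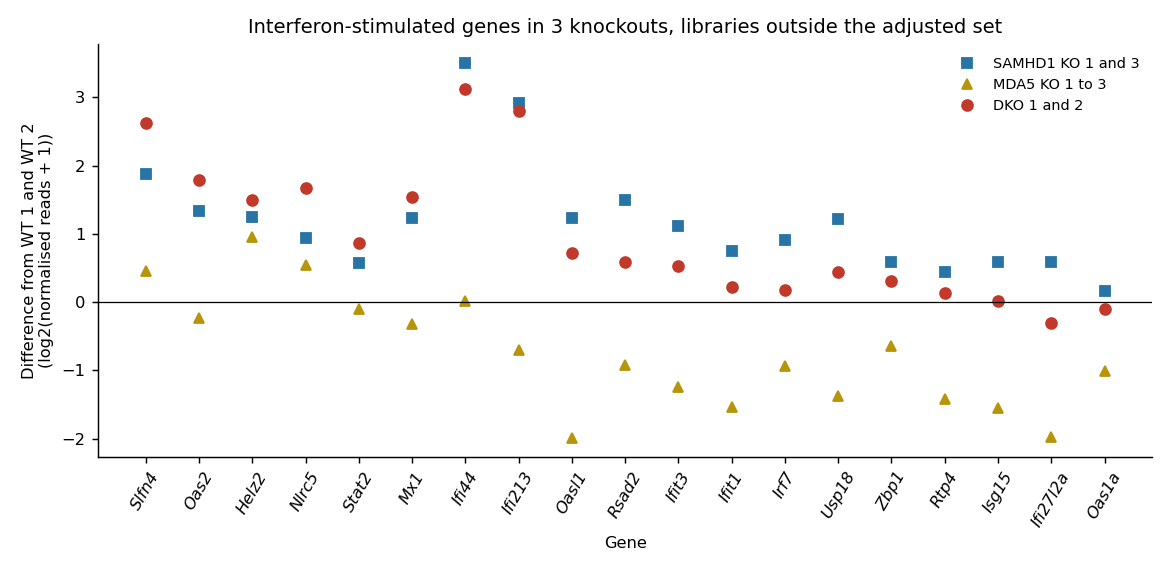
Difference from WT 1 and WT 2 in mean log2(normalised reads + 1) for 19 interferon-stimulated genes in SAMHD1 KO (blue squares), MDA5 KO (yellow triangles) and DKO (red circles), libraries outside the adjusted set. The DKO points lie above the MDA5 KO points in every gene shown, and for Isg15 they read 0.01 against -1.55.

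Genes induced by interferon gamma and IRF1 also lay mostly above 0. Of 23 tested, 19 lay above 0 with a median of 0.42, and 0.36 without WT 3, when 2 rose (background 4.45%). These were the immunity-related GTPases Iigp1 (1.19 ± 0.23, adjusted p = 0.0257) and Tgtp2 (0.72 ± 0.18, adjusted p = 0.0434; reads can be shared with its copy Tgtp1). The most abundant members, Gbp2b and Irf8, differed by 0.91 ± 0.32 and -0.15 ± 0.24, and by 0.53 ± 0.28 and -0.40 ± 0.18 without WT 3. In the MHC class I list, 13 of 28 members lay above 0 and the median was -0.04. Without WT 3 it was 0.00538 and Nlrc5 alone rose (background 4.45%). H2-D1 and H2-K1, the classical class I heavy chains, differed by 0.18 ± 0.25 and -0.01 ± 0.19, and by -0.12 ± 0.16 and 0.01 ± 0.16 without WT 3. In the class II list 2 of 11 lay above 0 with a median of -0.42, and -0.27 without WT 3, when 0 passed. On recovered reads, the class II median of DKO 1 and DKO 2 was 0.51 against WT 1 alone and -0.96 against WT 2 alone, the library with the most B cell marker reads. Cd74 and Ctss differed by 0.39 ± 0.42 and -0.16 ± 0.21, and by 0.21 ± 0.75 and -0.36 ± 0.15 without WT 3.

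Upstream of interferon, the nucleic acid sensing list had 23 of 29 members above 0, with a median of 0.36, and 0.27 without WT 3. Of these 29 members 1 rose without WT 3, near the share of 4.45% over all genes. It was Ikbke, a kinase that activates IRF3. Ikbke reached 1662, 1532 and 853 normalised reads in the 3 WT libraries, in order, and 4665, 3089 and 2978 in the 3 DKO libraries. All DKO libraries lay above all WT libraries, at 1.39 ± 0.23 over 6 libraries and 1.22 ± 0.19 without WT 3 (adjusted p = 0.0193). The most abundant members, Unc93b1 and Rnaset2a, differed by 0.20 ± 0.19 and -0.76 ± 0.32, and by 0.33 ± 0.14 and -0.24 ± 0.13 without WT 3. Among interferon genes, receptors and JAK-STAT members, 14 of 17 lay above 0 with a median of 0.29, and 0.16 without WT 3. In the latter fit Stat2 and the receptor kinase Tyk2 (0.63 ± 0.14, adjusted p = 0.0323) rose (background 4.45%). Jak1 and Ptpn6 differed by 0.51 ± 0.32 and 0.29 ± 0.31, and by 0.01 ± 0.15 and -0.21 ± 0.13 without WT 3. Of 26 NF-kB targets and cytokines, 21 lay above 0 with a median of 0.38, or 0.28 without WT 3, when 3 rose (background 4.45%). Nfkbiz, an atypical IkB protein, rose by 1.32 ± 0.15 (adjusted p = 0.0091), the inflammasome sensor Nlrp3 by 0.76 ± 0.13 (adjusted p = 0.0193) and the chemokine Cxcl2 by 0.77 ± 0.19 (adjusted p = 0.0419), although DKO 3 minus WT 3 was -1.08 for Cxcl2. Saa3 and Nfkbia, the most abundant members, differed by 0.71 ± 0.55 and -0.40 ± 0.33, and by -0.23 ± 0.24 and 0.11 ± 0.16 without WT 3.

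Cytosolic ribosomal protein genes were lower in DKO. Of 42 members tested, 1 lay above 0 and the median difference was -1.09. At an unadjusted p under 0.05 in limma 39 were lower, against 13.4% of all genes, and 0 passed the adjusted test. Without WT 3 the median was -0.64 and 24 fell, against 3.32% of all genes, and 0 rose; the median between DKO 3 and WT 3 was below 0 as well. In 40 of 42 members all 3 DKO libraries lay below all 3 WT libraries, against 17.7% of all genes tested. The authors' deposited table gave 36 as lower, against 7.72% of the genes tested here. With WT 3 left out and DKO 3 kept, on recovered reads, the median was -0.66 and 21 fell (background 1.46%).

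Rpl32, a large-subunit protein, had 24307, 30899 and 85273 normalised reads in WT 1 to 3, against 14221, 12834 and 16307 in DKO 1 to 3, and the genotypes did not overlap. Rpl32 differed by -1.47 ± 0.31, and by -1.02 ± 0.16 without WT 3 (adjusted p = 0.0177). Rps3, the most abundant member, stood at 63742, 81356 and 190300.5 normalised reads across WT 1 to 3 and at 37539.7, 47731 and 37471 across DKO 1 to 3. It differed by -1.29 ± 0.35, and by -0.77 ± 0.18 without WT 3 (adjusted p = 0.0417). Rpl8, next in abundance, differed by -0.96 ± 0.29 and -0.54 ± 0.16 (adjusted p = 0.0652) and did not pass. Rplp0 of the ribosomal stalk fell by 0.82 ± 0.15 without WT 3 (adjusted p = 0.0215), and Rps14 fell by 1.01 ± 0.21 (adjusted p = 0.0291). Ribosomal protein genes have many processed pseudogenes, and how reads shared with them were counted is not given in the sources used here.

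Set beside the single knockouts on recovered reads outside the adjusted set, the ribosomal list's median was -0.66 in DKO, -0.04 in SAMHD1 KO, -0.52 in MDA5 KO. For Rpl32 the 3 values were -1.03, 0.05 and -0.60. SAMHD1 KO 1 stood at 11.62 in the list's mean, near the DKO and MDA5 KO libraries, and SAMHD1 KO 3 at 12.64. The SAMHD1 KO value is thus an average of 2 libraries that differed by more than the genotypes did.

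Nuclear-encoded genes of oxidative phosphorylation were lower as well. Of 36 tested, 2 lay above 0, with a median of -0.75, and -0.35 without WT 3, when 7 fell, against 3.32% of all genes, and 0 rose. All 3 DKO libraries lay below all 3 WT libraries in 28, against 17.7% of all genes. Cox7a2, a subunit of cytochrome c oxidase, reached 2317, 2301 and 6409 normalised reads in the 3 WT libraries, in order, and 1308, 1193 and 1728 in the 3 DKO libraries. All DKO values were below all WT values, at -1.19 ± 0.25 and, without WT 3, -0.86 ± 0.13 (adjusted p = 0.0165). Uqcrc2 of complex III differed by -0.84 ± 0.22, and by -0.61 ± 0.14 without WT 3 (adjusted p = 0.035). The ATP synthase subunits Atp5a1 and Atp5b, the most abundant members, differed by -0.49 ± 0.26 and -0.54 ± 0.27, and by -0.15 ± 0.15 and -0.16 ± 0.15 without WT 3, and did not pass. On recovered reads with WT 3 left out and DKO 3 kept, 1 member, Ndufa4, was called lower (background 1.46%). Outside the adjusted set this median was -0.38 in DKO, -0.13 in SAMHD1 KO, -0.32 in MDA5 KO.

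**Figure D4:**
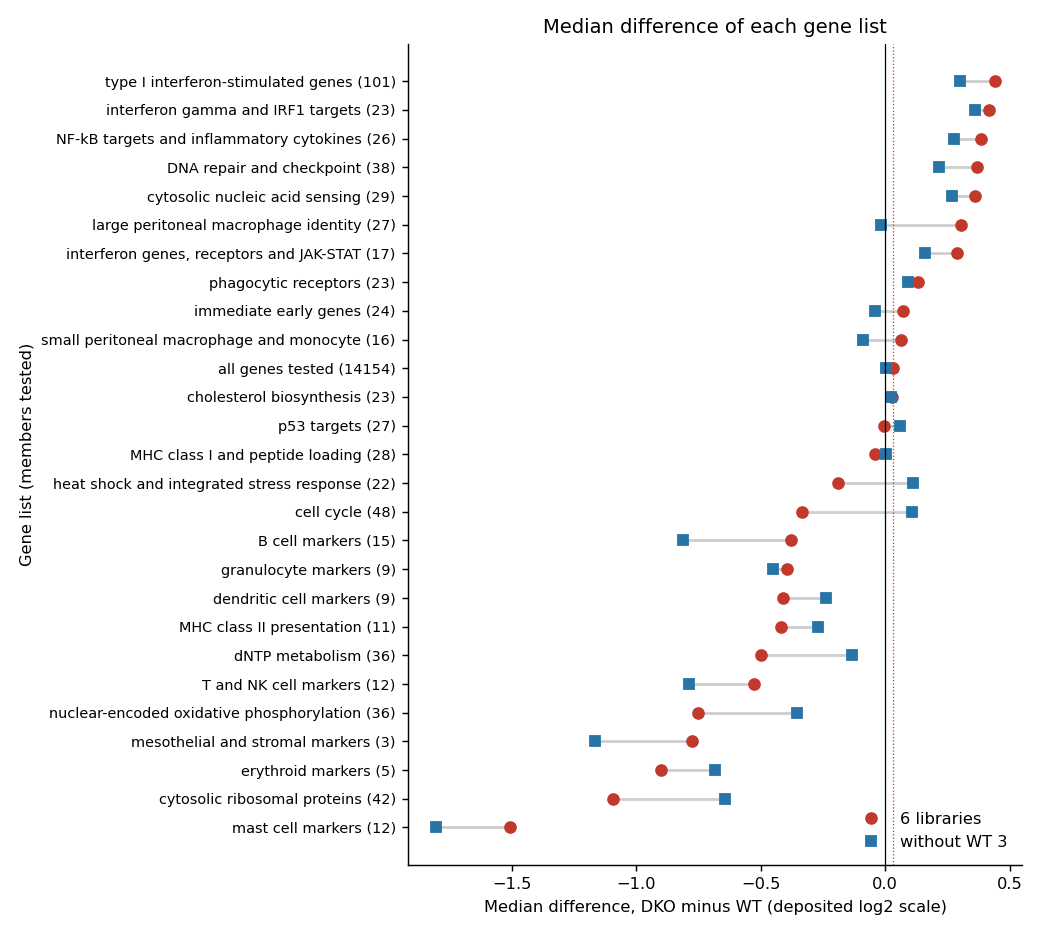
Median difference, DKO minus WT, of 26 gene lists and of all genes tested, on the deposited log2 scale, over 6 libraries (red circles) and without WT 3 (blue squares); numbers in brackets are members tested and the dotted line marks the median of all genes. Type I interferon-stimulated genes lie at 0.44 and 0.30, interferon gamma and IRF1 targets at 0.42 and 0.36, and ribosomal proteins at -1.09 and -0.64.

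Differences also followed transcript length, a column of the deposited table. Over protein-coding genes in 5 groups of equal size from the shortest to the longest, the median difference was -0.36, -0.08, 0.11, 0.28 and 0.50, and without WT 3 it was -0.20, -0.06, 0.05, 0.13 and 0.24. Median lengths were 1800 bases in the ribosomal list, 1959 in oxidative phosphorylation, 3758 in the interferon list and 3524 over all genes. With the median of each of 20 length bins subtracted from every library, the medians without WT 3 were -0.56 for ribosomal proteins, -0.22 for oxidative phosphorylation and 0.24 for interferon-stimulated genes. In that setting 144 genes were called higher (1.02%) and 71 lower (0.502%). The 8 interferon members among them were Helz2, Ifi213, Mx1, Nlrc5, Oas2, Parp10, Slfn4 and Stat2, and the 3 ribosomal members were Rpl32, Rps19 and Rpsa.

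**Figure D5:**
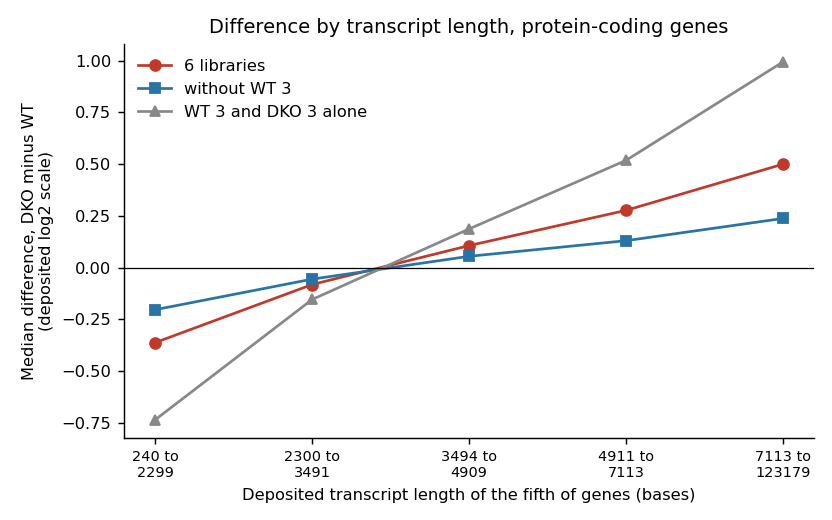
Median difference, DKO minus WT, on the deposited log2 scale in 5 equal groups of protein-coding genes ordered by deposited transcript length in bases, for 6 libraries (circles), without WT 3 (squares) and for DKO 3 minus WT 3 alone (triangles). All 3 lines climb from the shortest to the longest genes, from -0.36 to 0.50 over 6 libraries.

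Genes of deoxynucleotide metabolism, the pathway of the SAMHD1 enzyme, had 3 of 36 members above 0 and a median of -0.50 over 6 libraries. Without WT 3 the median was -0.13 and 0 passed in either direction. At an unadjusted p under 0.05 in limma over 6 libraries, 10 were lower and 0 higher, against 13.4% and 15.8% of all genes. Rrm1, the large subunit of ribonucleotide reductase, had 1808, 1591 and 4155 normalised reads in WT 1 to 3, against 1198, 1842 and 1916 in DKO 1 to 3. WT 3 was the highest library and the others overlapped, at -0.49 ± 0.27 and -0.18 ± 0.20 without WT 3. The most abundant members, Cmpk1 and Pnp, differed by -0.89 ± 0.27 and -0.52 ± 0.21, and by -0.49 ± 0.13 and -0.34 ± 0.15 without WT 3 (adjusted p = 0.0513 and 0.186).

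The median of cell cycle genes changed sign when WT 3 was left out. Their median was -0.33 over 6 libraries and 0.11 without WT 3, with 10 and 31 of 48 members above 0, and 0 passed in either fit. Mki67, the proliferation marker, stood at 633, 746 and 688 normalised reads across WT 1 to 3 and at 803, 1614 and 1632 across DKO 1 to 3. It was higher in every DKO library, at 0.85 ± 0.28 (adjusted p = 0.124) and 0.69 ± 0.33 without WT 3 (adjusted p = 0.27). The replication genes Mcm6 and Pcna differed by -0.08 ± 0.26 and -0.79 ± 0.34, and by 0.16 ± 0.23 and -0.24 ± 0.15 without WT 3. DNA repair and checkpoint genes had 28 of 38 above 0 and a median of 0.37, 0.22 without WT 3 and 0.07 when the length trend was removed as well; 0 passed, and Parp1 and Rpa1 differed by 0.39 ± 0.20 and -0.21 ± 0.20, and by 0.20 ± 0.13 and -0.31 ± 0.16 without WT 3. Of 27 p53 targets, Cdkn1a (-0.74 ± 0.14, adjusted p = 0.0215) and Phlda3 (-1.03 ± 0.23, adjusted p = 0.0325) fell and Plk3 (0.84 ± 0.17, adjusted p = 0.028) rose without WT 3. The backgrounds were 3.32% lower and 4.45% higher, and the list's median was -0.01 over 6 libraries and 0.06 without WT 3. Ccng1 and Sesn1 differed by -0.59 ± 0.18 and -0.18 ± 0.22, and by -0.53 ± 0.14 and -0.44 ± 0.13 without WT 3.

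Markers of large peritoneal macrophages had reads in all 6 libraries. All 27 genes of the large peritoneal macrophage list had reads in each of the 6 libraries, and their sum ran from 2627324 to 5441891 normalised reads in WT and from 4568012 to 7268004 in DKO. Lyz2 alone gave 2374235 of the 5441891 in WT 1 and 221255 of the 2627324 in WT 3, so the range in WT depends largely on Lyz2. Gata6, the factor that defines these cells, reached 7202, 7279 and 5020.4 normalised reads in the 3 WT libraries, in order, and 7119, 5656 and 7395 in the 3 DKO libraries. The groups overlapped, at 0.06 ± 0.23 and, without WT 3, -0.19 ± 0.15. The list's median was 0.30, and -0.02 without WT 3. Fn1 and Lyz2, its most abundant members, differed by 0.998 ± 0.32 and 0.58 ± 0.68, and by 0.71 ± 0.28 and -0.64 ± 0.20 without WT 3; Lyz2 gave 2374235, 2873818 and 221255 normalised reads in WT 1 to 3, with WT 3 far below the rest. The small peritoneal macrophage and monocyte list summed to 31794 to 38010 normalised reads in WT and to 44976 to 83057 in DKO. Of its 16 tested members 9 lay above 0, with a median of 0.06, and -0.09 without WT 3. In the latter fit Lyve1 rose (1.23 ± 0.19, adjusted p = 0.0177) and Ly6c2 fell, against 4.45% and 3.32% of all genes. Retnla and Csf2rb differed by 1.33 ± 0.57 and 0.64 ± 0.25, and by 1.81 ± 1.01 and 0.34 ± 0.16 without WT 3. Of 23 phagocytic receptors, 1 rose and 1 fell without WT 3, against 4.45% and 3.32% of all genes. Lrp1 rose (1.05 ± 0.17, adjusted p = 0.0183) and Mfge8, a bridging protein for apoptotic cells, fell (-0.61 ± 0.15, adjusted p = 0.0417). However, Mfge8 was 1.69 between DKO 3 and WT 3. C1qb and C1qc differed by -0.09 ± 0.20 and -0.18 ± 0.20, and by -0.15 ± 0.16 and -0.05 ± 0.16 without WT 3. Arg1, which breaks down arginine, fell by 0.53 ± 0.13 without WT 3 (adjusted p = 0.0481). It was the only 1 of 27 large peritoneal macrophage members that passed, against 4.45% higher and 3.32% lower of all genes.

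Markers of other cell types moved between libraries. Mast cell markers summed to 3849 to 16013 normalised reads in WT and to 1587 to 2714 in DKO; 0 of 12 tested lay above 0, with a median of -1.51, and 0 passed. Hdc, which makes histamine, and Cpa3, a mast cell protease, differed by -0.75 ± 0.29 and -2.85 ± 1.23, and by -1.01 ± 0.28 and -3.61 ± 2.51 without WT 3; Cpa3 gave 52.0, 3623 and 181 normalised reads in WT 1 to 3 against 34.1, 0 and 42.4 in DKO 1 to 3. B cell markers summed to 18099 reads in WT 2, 179 in WT 1 and 145 in WT 3, and to 316 to 1113 in DKO, with 1 of 15 above 0 and a median of -0.38. On recovered reads 9 of 15 lay above 0 with a median of 0.26. Without WT 2 the B cell median was 0.59 and that of T and NK cell markers 0.10, so that both turned direction, while that of mast cell markers was -0.51. T and NK cell markers summed to 212 to 1973 in WT and to 287 to 456 in DKO, with 2 of 12 above 0, and mesothelial and stromal markers to 101 to 413 in WT and 28.3 to 47.7 in DKO, with 0 of 3 tested above 0. Granulocyte, erythroid and dendritic cell markers had medians of -0.39, -0.90 and -0.41, with 3 of 9, 0 of 5 and 4 of 9 above 0. Their sums ran from 18212 to 23392, 368 to 788 and 11739 to 18726 normalised reads in WT. In DKO they ran from 22493 to 27459, 262 to 336 and 17687 to 19616. On recovered reads the medians, in the same order, were -0.41, -2.62 and 0.02. B cell, T and NK cell and mast cell markers were highest in WT 2, on which the calls without WT 3 rest together with WT 1. On recovered reads, the interferon list's median of DKO 1 and DKO 2 was 0.21 against WT 1 alone and 0.38 against WT 2 alone. The ribosomal median was -0.52 and -0.79, and that of oxidative phosphorylation -0.34 and -0.43, in the same order. The part of these markers in the calls of single genes was not tested.

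Outside the lists, the rule for named genes took the 10 genes with the smallest unadjusted p in each direction among those with a mean of at least 50, since none was called over 6 libraries. All of them passed without WT 3. An atypical small GTPase came first. Rnd3 had 1183, 1508 and 970.3 normalised reads in WT 1 to 3, against 7227, 6709 and 4272 in DKO 1 to 3. The DKO values were all far above the WT values, at 2.24 ± 0.19 (adjusted p = 0.0696) and 2.33 ± 0.15 without WT 3 (adjusted p = 0.000514). The transcribed pseudogene Tmem181b-ps (2.18 ± 0.21), the noncoding RNA Vis1 (1.87 ± 0.21), the lysosomal channel Tpcn2 (1.49 ± 0.19), Fam193b (2.12 ± 0.27), Paxbp1 (1.54 ± 0.20) and the splicing factor Prpf39 (1.36 ± 0.19) were the others that were higher, besides Slfn4, Oas2 and Helz2. Reads of Tmem181b-ps may be shared with other Tmem181 copies. Rnd3 and Vis1 lie on chromosome 2, as do Samhd1 and Ifih1, though more than 1000000 bases from either. Slfn4, Oas2, Tmem181b-ps and Fam193b lie on other chromosomes. Whether position on chromosome 2 plays a part was not tested.

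Several of these genes also differed in MDA5 KO. Outside the adjusted set on recovered reads, Rnd3 minus WT was 2.37 in DKO, 0.83 in SAMHD1 KO, 2.25 in MDA5 KO; Vis1 minus WT was 2.19, 0.91 and 2.18. Tpcn2 differed by 1.64, 0.51 and 1.48. Gca, a calcium-binding protein whose gene lies within 1000000 bases of Ifih1, differed by -1.44, 0.14 and -1.05.

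The lower genes, besides Samhd1 and Ifih1, included the caveolins Cav1 and Cav2. Cav1, a coat protein of caveolae, stood at 4522, 3775 and 6850.3 normalised reads across WT 1 to 3 and at 1899, 1280.2 and 2759 across DKO 1 to 3. It was lower in every DKO library, at -1.35 ± 0.22 and -1.37 ± 0.19 without WT 3 (adjusted p = 0.0177). Cav2 differed by -1.09 ± 0.19, Gca by -1.20 ± 0.20, Glipr1 by -1.32 ± 0.23, the neuronal-type glucose transporter Slc2a3 by -1.45 ± 0.26, the tubulin Tuba1a by -1.29 ± 0.23, the fatty acid binding protein Fabp7 by -1.27 ± 0.23 and the ribosomal pseudogene Rpsa-ps9 by -1.45 ± 0.27, which can share reads with Rpsa. Slc2a3 reached 161, 97.7 and 52.6 normalised reads in the 3 WT libraries, in order, and 13.1, 11.0 and 9.09 in the 3 DKO libraries, the lowest values among them. Of 4 tested genes within 1000000 bases of Ifih1, Gca fell without WT 3 (-1.31 ± 0.18, adjusted p = 0.0145). Of 36 near Samhd1, 1 rose and 2 fell without WT 3, against 4.45% and 3.32% of all genes.

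Genes with large changes without WT 3 that DKO 3 did not share were named after their values were seen. Angptl4, a lipase inhibitor, had 44.3, 113 and 130.1 normalised reads in WT 1 to 3, against 601, 572 and 133 in DKO 1 to 3. DKO 1 and DKO 2 were higher than all WT libraries and DKO 3 was level with WT 3. Angptl4 differed by 2.35 ± 0.28 without WT 3 (adjusted p = 0.00982) and by 0.03 between DKO 3 and WT 3. Scd2, a fatty acid desaturase, stood at 794, 1264 and 919 normalised reads across WT 1 to 3 and at 218, 210.0 and 1273 across DKO 1 to 3. It differed by -1.97 ± 0.21 without WT 3 (adjusted p = 0.0091) and 0.45 between DKO 3 and WT 3. In the cholesterol list Mvd fell (-0.65 ± 0.15, adjusted p = 0.0375) without WT 3, the list's median was 0.03, and 0.02 without WT 3, and Srebf2 differed by 0.56 ± 0.30, and by 0.35 ± 0.38 without WT 3. Of immediate early genes Zfp36, which destabilises cytokine mRNAs, rose without WT 3 (0.75 ± 0.14, adjusted p = 0.0235), and Dusp1 and Klf2 differed by 0.12 ± 0.33 and 0.06 ± 0.22, and by -0.21 ± 0.38 and -0.12 ± 0.16 without WT 3. Of heat shock and stress genes the mitochondrial co-chaperonin Hspe1 fell without WT 3 (-0.71 ± 0.15, adjusted p = 0.0288), and Hspa5 and Hspa8 differed by 0.25 ± 0.28 and -0.75 ± 0.31, and by 0.47 ± 0.28 and -0.28 ± 0.15 without WT 3. The medians of these lists were 0.07 and -0.19 over 6 libraries, and changed sign to -0.04 and 0.11 without WT 3. Mvd, Zfp36 and Hspe1 were the only calls among 23 cholesterol, 24 immediate early and 22 stress genes tested. Over all genes 4.45% were higher and 3.32% lower.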

How the data were processed

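The analysis began from the table deposited for DKO and WT and from the other 5 pairwise tables. Per the labels' protocols, total RNA was extracted with a Qiagen RNeasy kit and reads were mapped to mm10; the submitters' processing notes name STAR, Salmon, R 4.1.2 and DESeq2 with GRCm38. The library columns are log2 values deposited by the authors; their value for 0 reads and their spacing were those of a variance-stabilising transform, which no header names. In all 28313 genes the mean of WT 3 and DKO 3 equalled that of the other libraries, so a difference between these sets had been subtracted. The deposited mean (signal, normalised reads), log2 fold change, its p-values and adjusted p-values were used as the authors gave them. Undoing both steps gave whole reads within 0.05 in 99.9% of genes of this table, with 0 disagreements between tables; the transform and its inverse were tested on simulated data. No count model was run on them.

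Differences were fitted with limma 3.58.1 (R 4.3.3; trend and robust moderation) on the deposited log2 columns, with genotype and the adjusted set as terms, over genes with a deposited mean of at least 10, with Benjamini-Hochberg adjustment and a threshold of 0.05. A gene passed, rose or fell only by this test; where no gene did, values are given. On simulated data for this comparison over 14154 genes, with 200 changed, the fit over 6 libraries recovered 54% of genes changed by 1 on the log2 scale and 99% of those changed by 2, with 12 false calls, and the fit without WT 3 recovered 91% and 99%, with 27. Simulated errors had the spread of all 6 libraries for the first fit, and that of WT 1, WT 2, DKO 1 and DKO 2 for the second. The rates of these fits thus come from different simulated data and cannot be compared with each other. The simulated errors were drawn separately for each gene, with no departure of WT 3 alone and no length trend. These rates therefore do not cover errors that genes share in the real libraries. Alternatives are listed in the closing section. Normalised reads are recovered reads over size factors of the 6 libraries; side-by-side values use factors of all 12 and log2(value + 1). Depth limits low genes, and counting error only is covered by these read numbers.

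Named genes were Samhd1, Ifih1, the 10 genes per direction with the largest differences among those called (filled by unadjusted p among genes with a mean of at least 50), a panel of interferon and cell state genes, and up to 4 called or the 2 most abundant members of lists, plus members that passed without WT 3, added after their values were seen. Cell type lists other than mast cells are given by counts and sums. The members and all 26 lists were chosen with earlier results of these data known, and no list was tested as a set. Some genes that this rule names are not reported here. Genes of the X, Y and mitochondrial chromosomes are not analysed here.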

Additional observations from a re-analysis of the deposited data

How the results depend on the processing

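Over 6 libraries, the replicate block, a minimum mean of 50, limma without trend and robust moderation, centring of libraries, and recovered reads with a pseudocount of 1 or 5 or with a term for the adjusted set each gave 0 calls in both directions, as reported. Same-numbered libraries had correlations of 0.138, 0.00898 and 0.245 between their deviations, so the numbers were not taken as pairs, and the replicate block gave 0 higher and 0 lower. Higher and lower calls numbered 688 and 497 without the set term. On simulated data, limma without that term gave 9.03% of unchanged genes an unadjusted p under 0.05, against 4.77% with it. Calls numbered 510 and 431 with no filter, 607 and 477 outside the adjusted set, and 1008 and 1093 in the authors' deposited table. Without WT 3 and without the set term they were 19 and 2, on recovered reads without WT 3 207 and 207, over 12 libraries 1 and 0, over 12 libraries with the set term 6 and 3, with the length trend removed 3 and 2, and without WT 3 as well 144 and 71. Leaving out 1 library gave 0 to 630 higher and 0 to 470 lower; 630 and 470 came without WT 3, 578 and 469 without DKO 3, and 0 without each of the other 4. With the set term, leaving out WT 3 or DKO 3 left DKO 1 and DKO 2 against WT 1 and WT 2. That is the comparison outside the adjusted set, so these settings gave the same differences, such as -1.37 for Cav1. Why genes passed there and not over 6 libraries was not tested. Across all settings the medians kept their sign, at 0.11 to 0.51 for interferon-stimulated genes, -1.28 to -0.52 for ribosomal proteins and -0.94 to -0.22 for oxidative phosphorylation.

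No gene passed over 6 libraries, while Mfge8 and Cxcl2 passed without WT 3. Of 113 named genes, 28, including both of these, changed sign in at least 1 setting. Without WT 3 and the set term, their values were -0.043 for Dusp1, -0.065 for Gata6, -0.029 for Klf2, -0.028 for Lyz2, 0.038 for Mcm6, -0.23 for Mfge8 and 0.015 for Rtp4. Outside the adjusted set they were -0.21 for Dusp1, -0.19 for Gata6, -0.12 for H2-D1, 0.00644 for H2-K1, 0.019 for Isg15, -0.12 for Klf2, -0.010 for Lgals3bp, -0.64 for Lyz2, 0.16 for Mcm6, -0.61 for Mfge8, 0.11 for Nfkbia, -0.21 for Ptpn6, 0.14 for Rtp4 and -0.23 for Saa3. On recovered reads without WT 3 they were -0.063 for Cd74, -0.12 for Gata6, -0.17 for H2-D1, -0.28 for Ifit1, -0.088 for Irf7, -0.15 for Klf2, -0.081 for Lgals3bp, -0.19 for Ly6e, -0.60 for Lyz2, 0.44 for Mcm6, -0.49 for Mfge8, 0.055 for Nfkbia, -0.011 for Ptpn6, -0.58 for Saa3 and -0.078 for Usp18. With the length trend removed they were 0.29 for C1qb, 0.00224 for C1qc, 0.15 for Ctss, 0.060 for H2-K1, 0.25 for Isg15 and 0.077 for Rtp4. Without WT 3 as well they were 0.069 for C1qb, 0.042 for C1qc, -0.16 for Dusp1, -0.18 for Gata6, -0.069 for H2-D1, 0.055 for H2-K1, 0.088 for Ifi27l2a, 0.32 for Isg15, -0.18 for Jak1, -0.035 for Ly6e, -0.46 for Lyz2, 0.085 for Mcm6, -0.68 for Mfge8, 0.24 for Nfkbia, 0.00847 for Oas1a, -0.16 for Ptpn6, 0.23 for Rtp4 and -0.19 for Saa3. With 1 library left out, values ran from -0.00179 to 0.88 for Cd74, -0.095 to 0.77 for Cxcl2, -0.21 to 0.47 for Dusp1, -0.19 to 0.22 for Gata6, -0.12 to 0.30 for H2-D1, -0.092 to 0.055 for H2-K1, -0.052 to 0.47 for Hspa5, -0.40 to 0.075 for Irf8, -0.43 to 0.019 for Isg15, -0.12 to 0.22 for Klf2, -0.010 to 0.43 for Lgals3bp, -0.64 to 1.01 for Lyz2, -0.35 to 0.16 for Mcm6, -0.61 to 0.47 for Mfge8, -0.65 to 0.11 for Nfkbia, -0.21 to 0.45 for Ptpn6, -0.22 to 0.14 for Rtp4, -0.23 to 1.18 for Saa3 and -0.13 to 0.41 for Usp18. The length settings, the comparisons with WT 1 or WT 2 alone, the set term on recovered reads and the 12-library fit with the set term were chosen after seeing the data.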
